A study of Mus musculus with 6 samples.

Results

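Rab genes encode the small GTPases that direct membrane traffic, and their transcript levels were examined in WT and Kansl1 KO primary mouse embryonic fibroblasts (MEFs). The set comprised each gene whose symbol is Rab followed by a number and, in some cases, a letter, and whose mean over the 6 samples was at least 1 TPM (the usual unit of RNA sequencing in which reads are corrected for gene length, and each sample then adds up to the same sum). Of 58 such symbols in a table of 26898 genes, 47 passed this threshold and 11 did not. Both groups were MEFs of mid-gestation C57BL/6 embryos at passage 3, and both received 1 μM tamoxifen for 48 h. The 3 WT samples (WT 4, 5 and 8) were Kansl1 fl/fl. The 3 KO samples (KO 3, 7 and 10) were Kansl1 fl/fl/CAG-cre, in which a tamoxifen-activated Cre recombinase is driven by the ubiquitous CAG promoter. According to the methods of the study, the samples came from 3 mice per group. No cells with Cre and an intact Kansl1 were analysed here, so loss of Kansl1 and presence of Cre cannot be told apart. The study compared these cells to find genes whose transcript levels depend on Kansl1, in work on autophagy. KANSL1 is a scaffold of the NSL complex, which acetylates histone H4.

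A Rab protein works as a switch. In its GTP-bound form it sits on one membrane compartment and recruits effectors, which tether, move or fuse vesicles. Guanine nucleotide exchange factors (GEFs) turn it on, GTPase-activating proteins (GAPs) turn it off, and a lipid anchor added by geranylgeranyl transferase lets it bind the membrane. In fibroblasts these proteins serve secretion, endocytosis, recycling, the delivery of cargo to lysosomes and the primary cilium.

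The targeted gene was lower in each KO sample. Kansl1 measured 28.5, 26.7 and 24.4 TPM in the WT samples and 13.7, 15.8 and 14.4 TPM in the KO samples, and the groups did not overlap. The KO mean was 55.1% of the WT mean. These values cover the whole gene, so transcript lacking the part removed by Cre was not told apart from intact transcript. The log2 fold change of Kansl1 was -0.82 ± 0.11 (SE, n = 3 per group, limma adjusted p = 0.000859). Fold changes here and below are differences of log2(TPM + 1), so that those of weakly expressed genes come out too small. A gene was called when its limma p-value, adjusted over all 14799 genes tested, was under 0.005 and its log2 fold change lay beyond 0.5 in either direction. Per sample, 17655495 (KO 3) to 27718259 (KO 7) reads were assigned to genes. A single short RNA gene, Gm23935, took 15.5% to 25.6% of TPM and was highest in KO 3 (25.6%) and WT 8 (24.3%), the samples in which the summed Rab expression was also lowest in each group. Because TPM is scaled to a fixed total, a few abundant RNAs move the values of all other genes. A scaling by the median of ratios between samples moved the median change of all genes by 0.0856, from -0.07 to 0.02.

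In outline, 3 Rab genes fell in KO MEFs and no Rab gene was called higher. The 3 were Rab29, a GTPase of the Golgi and lysosome known as a partner of the kinase LRRK2, Rab13, which directs vesicles to cell junctions, and Rab28, which is known from cilia of photoreceptors. They amount to 3 of the 47 members (6.38%), beside 9.03% of all genes tested that were called lower. Beside the 0 members called higher stands a background of 1.64%. By limma, 13 members (27.7%) had an unadjusted p-value under 0.05, beside 39.4% of all genes tested, and 9 (19.1%) had an adjusted p-value under 0.05, beside 27.8%. The 8 members at 100 TPM or more showed small differences, with log2 fold changes between -0.14 and 0.13. Rab31 and Rab21, also among the 10 most abundant, had higher KO values, as described below.

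The DNA upstream of the 3 called genes and of Rab27a, which just missed the threshold, is shown first, to set it beside the promoter letters common in the family. Each run holds the 250 bases before the most upstream RefSeq start site, 5′ to 3′ on the strand of the gene, in build GRCm38.p6, which has the same chromosome sequences as mm10. Capitals mark the letters GGGCGG of a GC box, the letters CCAAT of a CCAAT box, the letters ACTACA and the letters GGAAGTG, each on either strand. The windows lie at chr1:131867027-131867276 for Rab29 (plus strand), chr3:90213465-90213714 for Rab13 (plus strand), chr5:41708180-41708429 for Rab28 (minus strand) and chr9:73044560-73044809 for Rab27a (plus strand). GENCODE places the start of Rab29 at base 131867224 and that of Rab13 at base 90213695, inside these windows. The last bases of the Rab29 and Rab13 windows therefore lie within the GENCODE genes.
Rab29: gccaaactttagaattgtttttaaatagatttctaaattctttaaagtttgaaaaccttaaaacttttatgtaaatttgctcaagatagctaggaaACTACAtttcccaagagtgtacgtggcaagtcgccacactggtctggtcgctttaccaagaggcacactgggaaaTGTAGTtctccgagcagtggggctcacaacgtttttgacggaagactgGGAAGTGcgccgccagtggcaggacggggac
Rab13: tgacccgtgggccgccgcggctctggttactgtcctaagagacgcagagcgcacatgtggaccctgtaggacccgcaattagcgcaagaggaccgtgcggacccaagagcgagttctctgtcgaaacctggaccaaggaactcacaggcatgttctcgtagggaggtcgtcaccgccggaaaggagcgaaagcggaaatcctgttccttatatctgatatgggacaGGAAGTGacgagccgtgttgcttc
Rab28: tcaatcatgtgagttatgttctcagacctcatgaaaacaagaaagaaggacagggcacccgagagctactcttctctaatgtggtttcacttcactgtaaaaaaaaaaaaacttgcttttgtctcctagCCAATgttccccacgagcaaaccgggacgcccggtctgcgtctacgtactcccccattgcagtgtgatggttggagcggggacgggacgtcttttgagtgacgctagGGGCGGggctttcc
Rab27a: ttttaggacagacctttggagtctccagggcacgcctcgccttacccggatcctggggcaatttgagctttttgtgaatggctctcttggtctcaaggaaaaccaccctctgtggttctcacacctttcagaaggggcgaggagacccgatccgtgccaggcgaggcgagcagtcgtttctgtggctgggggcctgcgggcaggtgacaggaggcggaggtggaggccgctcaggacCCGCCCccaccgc

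A RefSeq window was matched for 40 of the 47 members. The GC box GGGCGG was present on either strand in 29 of these 40 windows (72.5%) and in 33.0% of the windows of 27025 genes. Those 27025 genes were not filtered by expression, unlike the members, so the sets are unlike. The members' windows were also rich in CpG, with a median of 18 per window (range 3 to 40) against 6 over the same 27025 genes. The Rab29 window stood low among them, with 9 CpG and 44.0% G and C, and it held no GC box and no CCAAT. It held ACTACA at 2 places, starting 154 and 79 bases before the start site and on opposite strands. That motif occurred in 5 of 40 member windows (12.5%) and in 9.19% of all windows. The Rab13 window held 20 CpG and neither a GC box nor CCAAT, and GGAAGTG began 24 bases before its start site. In the Rab29 window GGAAGTG began 31 bases before the RefSeq start site, which is after the GENCODE start. GGAAGTG occurred in 7 of 40 member windows (17.5%) and 8.61% of all. The Rab28 window held CCAAT 121 bases and a GC box 14 bases before the start site, and the Rab27a window held a GC box 13 bases before it. ACTACA and GGAAGTG were picked after these windows had been read. A match describes letters in a window and not a bound site.

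Transcript levels of the family spanned a 294-fold range of means (levels in TPM, which are per length). Rab2a, which acts between the Golgi and the endoplasmic reticulum, had the highest mean of 295 TPM. It was followed by Rab7, the GTPase of late endosomes and lysosomes, at 269 TPM, and by Rab1a, which acts in transport from the endoplasmic reticulum to the Golgi, at 233 TPM. There were 8 members at 100 TPM or more, 28 at 10 TPM or more and 19 under 10 TPM. The 10 most abundant members held 69.4% of the summed Rab TPM. That sum was 2473, 2354 and 2147 TPM in the WT samples and 2184, 2504 and 2386 TPM in the KO samples, so the groups overlapped. At the threshold of the set, Rab27a and Rab40b lay just inside with a mean of 1.00 TPM each, and Rab36 just outside with 0.73 TPM. Rab2b, Rab27a and Rab40b had KO means under 1 TPM and were members through their WT level. The other genes left out were Rab4b, Rab33a, Rab25, Rab26, Rab3c, Rab19, Rab37, Rab39, Rab44 and Rab9b, all under 0.5 TPM.

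**Figure D1:**
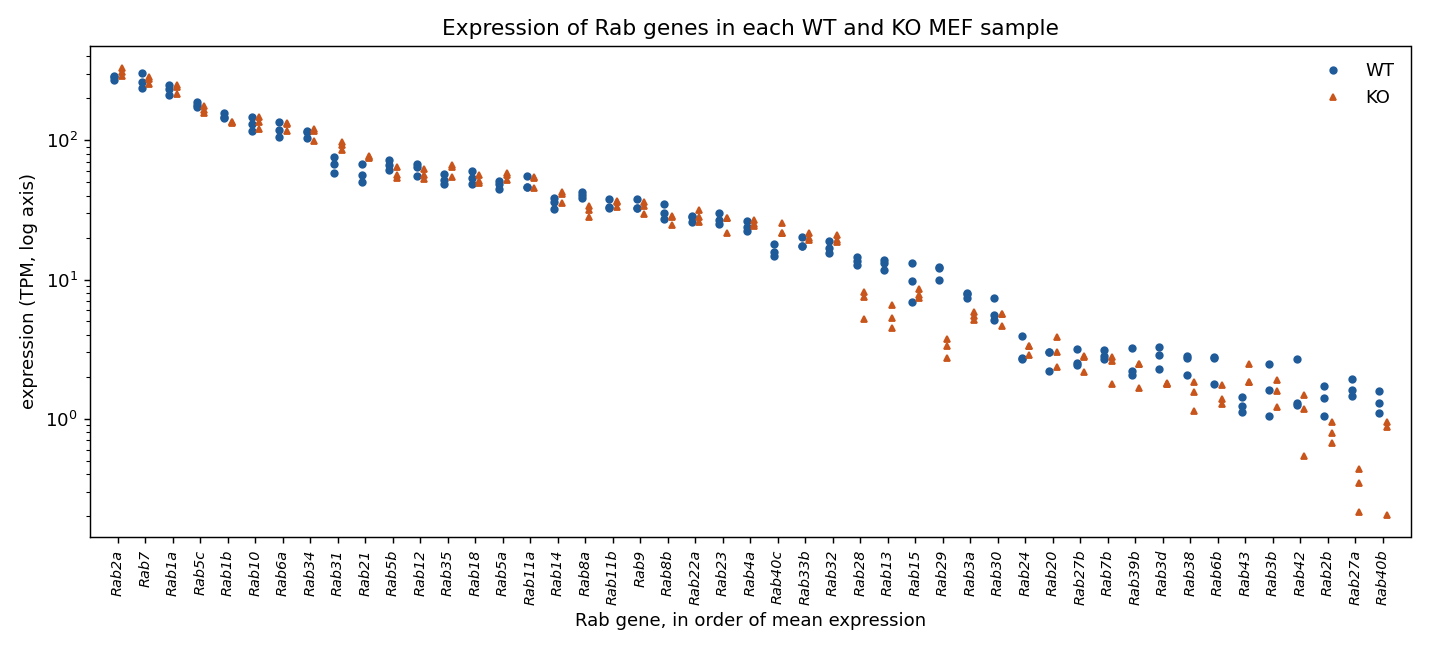
Expression of the 47 Rab genes in TPM (log axis), ordered by mean, with 1 point per sample (circles WT, triangles KO, n = 3 each). The groups lie together over most of the range, and Rab28, Rab13, Rab29 and Rab27a show KO points well below the WT points.

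Rab29 (ENSMUSG00000026433.13, mm10 chromosome 1, bases 131867224 to 131872887, plus strand) was the member with the lowest fold change. It measured 12.2, 12.3 and 9.84 TPM in the WT samples and 2.72, 3.73 and 3.36 TPM in the KO samples. The highest KO sample lay under the lowest WT sample, and the KO mean was 28.6% of the WT mean. The log2 fold change was -1.54 ± 0.15 (SE, limma adjusted p = 0.000231), with a 95% interval of -1.87 to -1.22. Behind it stood 137 to 158 reads per WT sample and 29 to 53 reads per KO sample. Its exons overlapped no other annotated gene. It was called in each of 11 alternative fits, 6 of which left out a sample.

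Rab13 (ENSMUSG00000027935.14, chromosome 3, bases 90213695 to 90226385, plus strand) measured 13.8, 13.1 and 11.7 TPM in the WT samples and 5.26, 6.60 and 4.48 TPM in the KO samples. No sample of one group reached the other, and the KO mean was 42.3% of the WT mean. The log2 fold change was -1.12 ± 0.15 (SE, limma adjusted p = 0.000762), with a 95% interval of -1.44 to -0.79. Like those of Rab29, the exons of Rab13 and Rab28 overlapped no other annotated gene. Rab13 was called in each of the 6 fits that left out a sample, and lost its call when all 26898 genes were tested (adjusted p = 0.00682).

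Rab28 (ENSMUSG00000029128.12, chromosome 5, bases 41624976 to 41708157, minus strand) measured 13.5, 14.6 and 12.7 TPM in the WT samples and 5.22, 8.16 and 7.54 TPM in the KO samples. KO 3 was the lowest sample, and the groups stood apart. The log2 fold change was -0.89 ± 0.16 (SE, limma adjusted p = 0.003). This call was the least firm of the 3. It was lost when all 26898 genes were tested (adjusted p = 0.017) and without a variance trend (0.00634). It held in 1 of the 6 fits that left out a sample, that without KO 7 (log2 fold change -0.999, adjusted p = 0.00414). Over those 6 fits the fold change ranged from -0.999 to -0.720 and the adjusted p-value from 0.00414 to 0.0106.

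Rab27a, which docks secretory lysosomes, melanosomes and exosome-forming endosomes at the plasma membrane, had the lowest ratio of all members. It measured 1.94, 1.62 and 1.47 TPM in the WT samples and 0.21, 0.35 and 0.43 TPM in the KO samples. The groups were far apart relative to their spread, and the KO mean was 19.7% of the WT mean. Its log2 fold change of -1.01 ± 0.20 missed the threshold (limma adjusted p = 0.00522). It was called by median-of-ratios scaling (adjusted p = 0.00314), without a variance trend (0.00144) and by voom on recovered reads (0.000427). It was not called with a pseudocount of 0.1 (adjusted p = 0.0082), with all genes tested (0.00763) or in any of the 6 fits that left out a sample (0.0129 to 0.019). Its WT level alone brought it past the 1 TPM minimum, so its difference was favoured by the choice of members. The reads were few, 61, 55 and 54 in the WT samples and 6, 13 and 15 in the KO samples. Of its exons, 149 bases were shared with Gm27186 on the same strand, so the counts of these genes may not be separable.

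**Figure D2:**
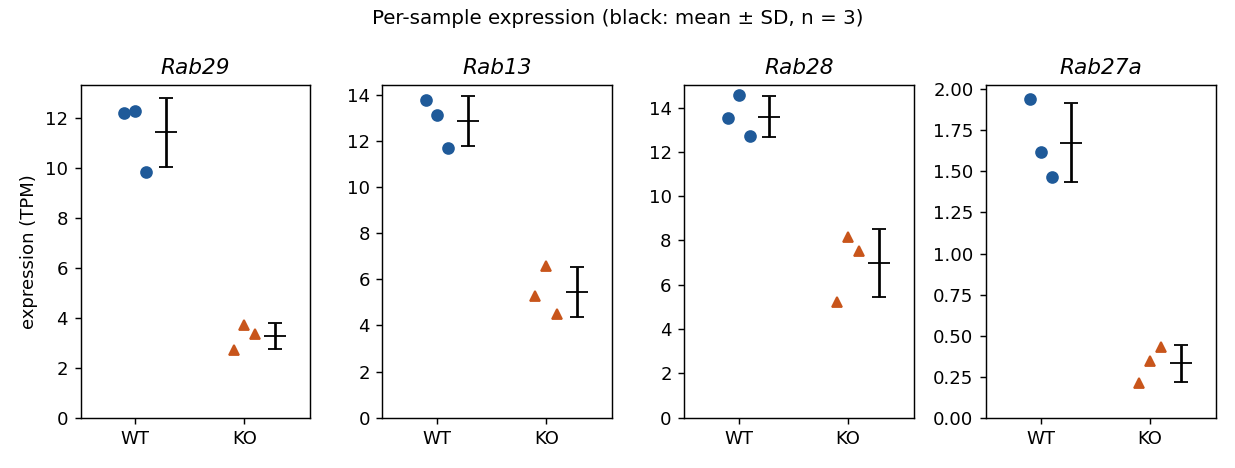
Expression in TPM of Rab29, Rab13, Rab28 and Rab27a in the 3 WT (circles) and 3 KO samples (triangles), each panel with its own axis from 0, and mean ± SD in black. The KO samples lie below the WT samples in each panel, at 28.6%, 42.3%, 51.3% and 19.7% of the WT mean.

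Beyond Rab27a, 5 further members had an adjusted p-value under 0.05 without reaching the fold threshold. Among them were the higher values of Rab40c, a Rab that is part of a ubiquitin ligase, Rab31, a GTPase of the trans-Golgi network and early endosome, and Rab21, which carries integrins on early endosomes. Rab40c measured 17.9, 15.8 and 14.8 TPM in the WT samples and 21.7, 25.4 and 21.6 TPM in the KO samples (log2 fold change 0.48 ± 0.12, limma adjusted p = 0.0146). Rab31 measured 75.2, 67.1 and 58.6 TPM in the WT samples and 84.5, 96.6 and 92.9 TPM in the KO samples (0.45 ± 0.11, limma adjusted p = 0.0177). Rab21 measured 67.5, 56.3 and 50.5 TPM in the WT samples and 74.5, 77.0 and 76.2 TPM in the KO samples (0.39 ± 0.12, limma adjusted p = 0.0334). For each of these 3 genes every KO sample lay above every WT sample. Rab40c and Rab31 passed both thresholds under median-of-ratios scaling, at 0.57 and 0.54, and under voom, at 0.60 and 0.56, so whether any Rab gene was higher depended on the scaling. These settings called 3.11% and 4.34% of all genes higher. Of the exons of Rab40c, 103 bases were shared with Gm16278 on the opposite strand.

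The other 2 of these members had lower values. Rab8a, which drives exocytic traffic and cilium growth, measured 40.8, 42.8 and 38.4 TPM in the WT samples and 28.3, 33.8 and 31.6 TPM in the KO samples (log2 fold change -0.37 ± 0.11, limma adjusted p = 0.0271). Rab3a, a GTPase of regulated exocytosis, measured 7.87, 7.94 and 7.34 TPM against 5.497, 5.89 and 5.13 TPM (-0.42 ± 0.12, limma adjusted p = 0.0258). In both, the KO samples lay under the WT samples.

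By site of action, the members called lower were in 2 of 4 lists. Among 13 Rab genes of exocytosis, polarity and the cilium, 2 fell (15.4%, Rab13 and Rab28), beside 9.03% of all genes tested. In this list 11 had a fold change below 0 (84.6%, beside 57.4% of all genes) and the median was -0.37, beside -0.07. In 7 of these 13 all KO samples lay below all WT samples, beside 29.9% of all genes tested. These counts and the median include Rab27a and Rab40b, members through their WT level alone, whose lower KO values the choice of members favours. Both are among the 11 and among the 7. Without them the middle gene of the list was Rab8b, at -0.16. Over the whole set, all KO samples lay below all WT samples in 12 of the 47 members (25.5%). In this list Rab10, which serves exocytosis and insulin-stimulated transport, was the most abundant and measured 146, 131 and 117 TPM in the WT samples and 121, 148 and 136 TPM in the KO samples, with the groups interleaved. With median-of-ratios scaling the median of the list was -0.28 with 9 of 13 below 0 (48.4% of all genes, median 0.02). With voom it was -0.28 with 8 of 13 below 0 (47.7% of all genes, median 0.03). Rab27a and Rab40b are again included, and Rab8b was at -0.066 and -0.063 in these settings. The low median of the list therefore rested in part on Rab27a and Rab40b. Level may also enter. In the main fit, 84.2% of the members under 10 TPM over all lists were below 0, beside 59.7% of all genes at that level. In this list those members were Rab3a, Rab3b, Rab3d, Rab13, Rab27a, Rab27b and Rab40b. Site of action and level were not separated.

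Among 10 Rab genes of late endosomes, lysosomes and lysosome-related organelles, Rab29 alone was called (1 of 10, near the 9.03% of all genes) and the median was -0.10, which was -0.0016 with median-of-ratios scaling and 0.007 with voom. Rab7 measured 302, 261 and 235 TPM in the WT samples and 253, 285 and 274 TPM in the KO samples, and the groups overlapped (log2 fold change 0.03, 95% interval -0.22 to 0.28). Rab38, a GTPase of melanosome formation, measured 2.74, 2.82 and 2.07 TPM against 1.57, 1.83 and 1.14 TPM without passing (-0.50, limma adjusted p = 0.0719). Its relative Rab32 had a fold change of 0.19.

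Among 13 Rab genes of early endosomes and recycling no member was called, and 10 had a fold change above 0 (76.9%, beside 42.6% of all genes), with a median of 0.07. With median-of-ratios scaling 10 were again above 0, beside 51.6% of all genes, and the median was 0.16. Rab31 was called higher with that scaling and with voom. All 3 KO samples lay above all 3 WT samples for Rab5a, Rab21 and Rab31. This pattern was found in 5 of the 47 members (10.6%), beside 13.3% of all genes tested. Rab5c, the most abundant of the list and one of the GTPases of early endosome fusion, measured 180, 189 and 172 TPM in the WT samples and 157, 177 and 165 TPM in the KO samples, which overlapped. Among 11 Rab genes of the endoplasmic reticulum and Golgi no member was called and the median was -0.05 (0.04 with median-of-ratios scaling). Rab2a measured 286, 289 and 269 TPM against 288, 329 and 310 TPM, and Rab1a 248, 232 and 211 TPM against 215, 250 and 239 TPM. Both overlapped between the groups.

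**Figure D3:**
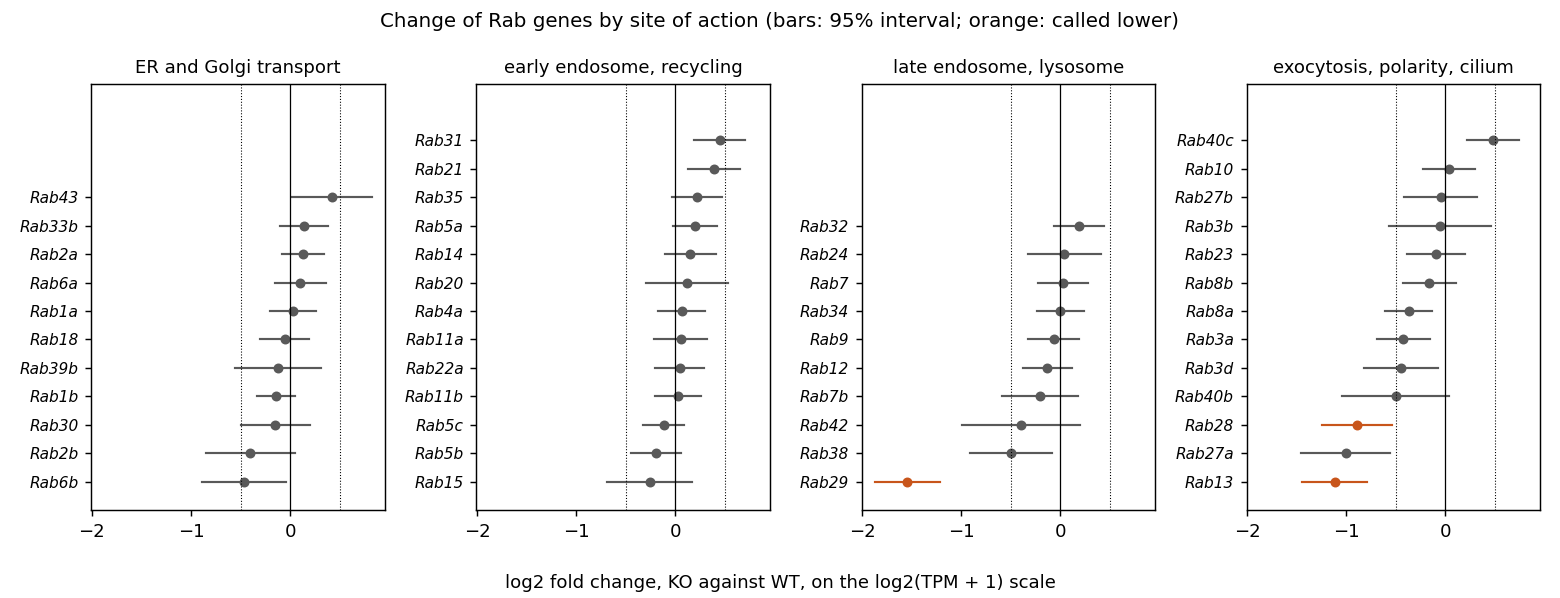
Log2 fold change of KO against WT for the 47 Rab genes, on the log2(TPM + 1) scale, in 4 panels by site of action, with 95% intervals from limma and dotted lines at -0.5 and 0.5. The 3 called genes (orange) are Rab29 at -1.54, Rab13 at -1.12 and Rab28 at -0.89.

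Over all 47 members the median log2 fold change was -0.06, beside -0.07 over all genes tested. Of the 44 members not called, 26 had a 95% interval that stayed within -0.5 and 0.5, and 18 had an interval that reached past one of these bounds. Members were also described by level, and the difference between levels was not tested. Of the 28 members at 10 TPM or more, 1 was called lower (background 7.9% at this level) and 10 had a fold change below 0 (35.7%, beside 55.3%). Their median was 0.03, beside -0.04 over all genes at that level. Of the 19 members under 10 TPM, 2 were called lower (background 10.3%) and 16 had a fold change below 0 (84.2%, beside 59.7%). Their median was -0.40, beside -0.13 over all genes under 10 TPM. These 19 include Rab2b, Rab27a and Rab40b, which were members through their WT level. This choice favours lower KO values. Without these genes the middle values were those of Rab15 (-0.26) and Rab7b (-0.21). With median-of-ratios scaling 14 of these 19 were below 0, beside 48.4% of all genes tested, and the median of the 19 was -0.34. Among all 47, 30 had a fold change between -0.25 and 0.25.

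Close paralogues allow a comparison within each sample. The scaling affects the ratio little where both genes lie well above 1 TPM. It affects the ratio more where a gene is weak, because 1 TPM was added to each value. The log2 ratio of each of 13 pairs was set between groups with an exact two-sided permutation test over samples, for which 3 against 3 samples cannot give a p-value under 0.1. In 8 pairs the ratio kept the groups apart and reached an exact p = 0.1 (0.163 adjusted over the 13 pairs), so none could pass 0.05. No share over other pairs of genes was computed, so this count has no background and is a description only. Among single genes, all KO samples lay below all WT samples in 29.9% of genes tested and above them in 13.3%. Rab5a enters 2 of the 8 pairs, and 3 of them hold Rab2b, Rab27a or Rab40b, for which the choice of members favours a low KO value. The ratios of these 3 pairs are given as descriptions. Rab27a and Rab27b are a pair of secretory Rab genes, and their ratio too was formed from log2(TPM + 1) values. Rab27a lay under 1 TPM in every KO sample, so the added 1 makes the KO ratio and its spread come out too small. On this scale the log2 ratio of Rab27a over Rab27b was -0.51, -0.43 and -0.47 in the WT samples and -1.38, -1.50 and -1.40 in the KO samples. The groups were separate, with a mean of -0.47 ± 0.04 (SD, n = 3) in WT and -1.43 ± 0.06 (SD, n = 3) in KO. Rab27b itself measured 3.19, 2.52 and 2.42 TPM against 2.16, 2.80 and 2.79 TPM, which overlapped.

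For Rab40b over Rab40c the mean log2 ratio was -2.88 ± 0.28 (SD, n = 3) in WT and -3.86 ± 0.35 (SD, n = 3) in KO, with Rab40b at 18 to 30 reads per WT sample and 3 to 17 reads per KO sample. For Rab22a over Rab31 it was -1.26 ± 0.13 (SD, n = 3) in WT and -1.66 ± 0.06 (SD, n = 3) in KO. These paralogues of the early endosome differ in that Rab22a overlapped between groups and Rab31 did not. The Rab5 genes share the work of early endosome fusion, and none of them was called. The log2 ratio of Rab5a over Rab5b was -0.46 ± 0.04 (SD, n = 3) in WT and -0.07 ± 0.07 (SD, n = 3) in KO, and that of Rab5a over Rab5c was -1.88 ± 0.08 and -1.57 ± 0.03 (SD, n = 3 each). Both comparisons use Rab5a, whose values were 50.9, 48.4 and 44.9 TPM in WT and 51.5, 58.3 and 56.4 TPM in KO.

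The remaining pairs with separate groups were Rab32 over Rab38, Rab2a over Rab2b and Rab6a over Rab6b, whose KO ratios exceeded the WT ratios by 0.69, 0.53 and 0.57. In each of these the less abundant paralogue had the lower fold change, -0.50 for Rab38, -0.40 for Rab2b and -0.47 for Rab6b, and none was called. Of the exons of Rab2b, 2664 bases were shared with genes on the opposite strand. The ratios overlapped between groups for Rab1a over Rab1b, Rab3a over Rab3d, Rab7 over Rab7b, Rab8a over Rab8b and Rab11a over Rab11b, where the differences lay between -0.21 and 0.24.

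**Figure D4:**
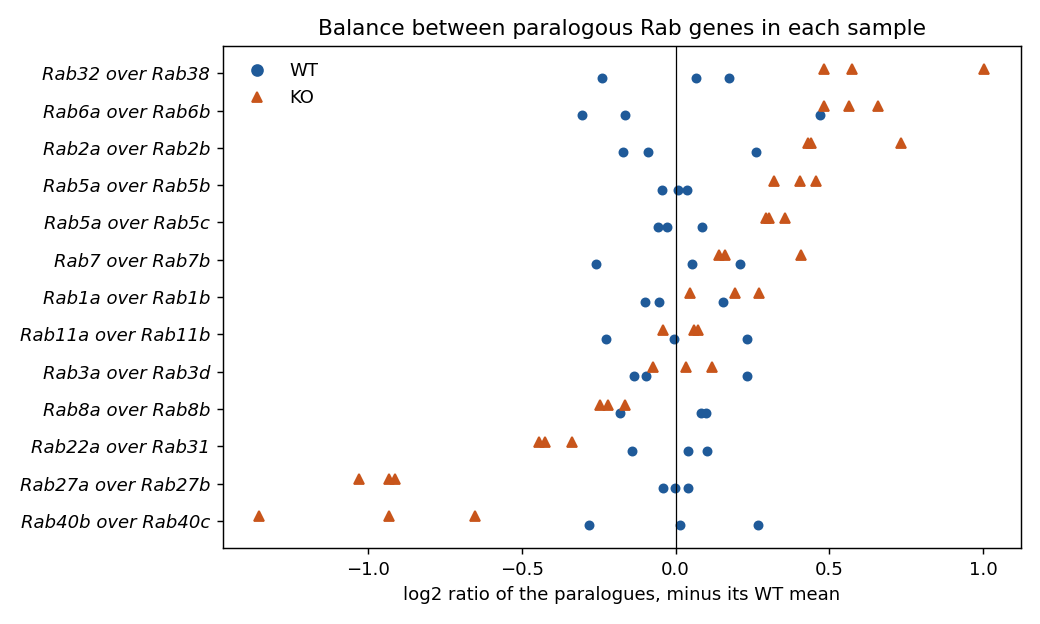
Log2 ratio of 13 pairs of paralogous Rab genes in each sample, on the log2(TPM + 1) scale, after subtracting the WT mean of the pair (circles WT, triangles KO). In 8 pairs no KO point reaches a WT point, from Rab40b over Rab40c (difference -0.98) to Rab32 over Rab38 (0.69).

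The proteins that act on Rab GTPases were examined as a list of 123 genes, of which 120 were in the table and 113 were tested. Of these, 12 (10.6%) fell and 3 (2.65%) rose, beside the 9.03% and 1.64% of all genes, and their median was -0.07. With median-of-ratios scaling 7 rose (background 3.11%) and the median was 0.01, and with voom 9 rose (background 4.34%) and the median was 0.03. By class, 3 of 36 exchange factors fell, 3 of 31 GAPs fell and 3 rose, 1 of 10 genes of prenylation, escort and Rab phosphorylation fell, and 5 of 36 effectors fell. Leaving out a sample gave between 4 and 8 falls (background 4.16% to 6.34% of all genes in these fits), with 5 without WT 4, 4 without WT 5, 7 without WT 8, 6 without KO 3, 8 without KO 7 and 6 without KO 10. Mon1a, Mon1b, Tbc1d22a, Tbc1d19, Tbc1d2 and Sgsm2 kept their calls in all 6 of these fits. The others named below as having fallen or risen lost theirs in at least 2. Exoc6 and Gcc2 lost theirs in all 6, Sytl4 and Rabepk kept theirs only without KO 7, and Tbc1d8 only without WT 4. None of the 5 effectors was called without WT 5.

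All 3 exchange factors that fell belong to the complex that activates Rab7. Mon1a and Mon1b are alternative subunits of the complex, and Ccz1 is their partner. Mon1b measured 11.04, 12.2 and 10.8 TPM in the WT samples and 3.30, 3.83 and 3.57 TPM in the KO samples (log2 fold change -1.43 ± 0.12, limma adjusted p = 0.00017). Mon1a measured 8.995, 8.51 and 8.36 TPM against 2.72, 3.21 and 3.13 TPM (-1.26 ± 0.12, limma adjusted p = 0.000275). Ccz1 measured 34.5, 32.6 and 27.4 TPM against 15.6, 18.9 and 19.5 TPM (-0.78 ± 0.13, limma adjusted p = 0.00231). The 3 genes did not overlap between groups. Mon1a and Mon1b kept their calls in each alternative in which they were tested, whereas Ccz1 kept its call in 2 of the 6 fits that left out a sample. Of the exons of Mon1b, 91 bases were shared with Syce1l on the same strand, and of those of Ccz1, 104 bases with Gm24311 on the opposite strand.

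A GAP of Rab7 moved the other way. Tbc1d2 measured 13.8, 10.0 and 11.5 TPM in the WT samples and 25.1, 26.3 and 24.4 TPM in the KO samples, and rose by 1.05 ± 0.13 (log2, limma adjusted p = 0.000563). Plekhm1, a Rab7 effector that links late endosomes to the HOPS tether, measured 12.2, 13.4 and 12.6 TPM against 7.07, 7.02 and 7.11 TPM (-0.77 ± 0.11, limma adjusted p = 0.0011), with 334 exon bases shared with Arhgap27os1 on the opposite strand. The remaining Rab7 genes of the list were not called. Rilp, an effector that recruits dynein, had values of 1.64, 0.86 and 0.93 TPM against 1.82, 2.22 and 2.48 TPM (0.58, limma adjusted p = 0.0593). Tbc1d5 and Tbc1d15, GAPs of Rab7, had fold changes of -0.34 and -0.13, and the effectors Fyco1 and Osbpl1a -0.23 and -0.15.

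**Figure D5:**
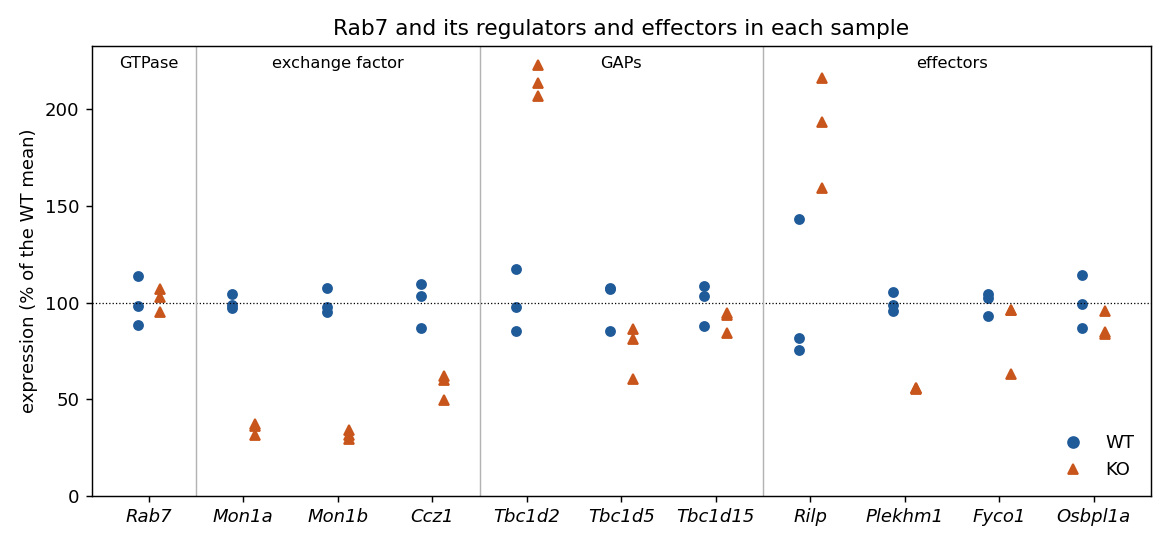
Expression of Rab7, its exchange factor subunits, its GAPs and its effectors in each sample, as a percentage of the WT mean of each gene (circles WT, triangles KO, dotted line at 100%). Rab7 lies between 94.8% and 107% in the KO samples, Mon1a and Mon1b between 29.2% and 37.3%, and Tbc1d2 between 207% and 223%.

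Of the other GAPs, Tbc1d22a (-1.18), Tbc1d19 (-1.17) and Tbc1d22b (-0.88) fell, and Sgsm2 (0.83) and Tbc1d8 (1.14) rose. Of the exons of Tbc1d22b, 325 bases were shared with genes on the opposite strand and 196 with Gm28052 on the same strand. Sgsm2, a GAP for which Rab32 is a known substrate, measured 5.81, 7.01 and 6.45 TPM in the WT samples and 11.6, 13.0 and 12.01 TPM in the KO samples. Tbc1d8 measured 0.71, 0.41 and 0.20 TPM against 2.34, 2.30 and 1.82 TPM, and of its exons 420 bases were shared with Rpl31 on the opposite strand. It was tested only because of its KO level, so a gene with its WT mean of 0.44 TPM could enter only if it was higher in KO.

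Among the effectors, Sytl4 (-1.18) fell, which encodes granuphilin, a partner of Rab27 in granule docking. It measured 2.19, 2.00 and 2.26 TPM in the WT samples and 0.21, 0.68 and 0.31 TPM in the KO samples. Its KO mean was 18.7% of the WT mean, and it passed the filter through its WT level alone. Another Rab27 effector, Sytl1, had values of 0.64, 0.63 and 0.63 TPM against 1.37, 1.80 and 2.22 TPM without being called (0.77, limma adjusted p = 0.0177), and it passed the filter through its KO level alone. Madd, the exchange factor of Rab27 and Rab3, had a fold change of -0.65 (limma adjusted p = 0.0263). The other effectors that fell were Exoc6, an exocyst subunit that binds Rab11 (-0.90), Rabepk, a Rab9 effector (-0.78), and the Golgi tether Gcc2 (-0.74). The Rab13 effector Micall2 and its relative Micall1 had values of 0.54 (limma adjusted p = 0.0153) and 0.57 (limma adjusted p = 0.00516), above 0 and not called. Effectors below 0 and not called included Rilpl2 (-0.71, limma adjusted p = 0.00501), Ocrl (-0.59, limma adjusted p = 0.00781) and Appl2 (-0.73, limma adjusted p = 0.0153).

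The subunits of the lipid anchoring enzyme were measured separately, and the difference between them was not tested. Rabggta, the alpha subunit of the geranylgeranyl transferase, measured 12.8, 12.7 and 12.5 TPM in the WT samples and 5.47, 7.20 and 7.82 TPM in the KO samples, and fell by 0.81 on the log2 scale (limma adjusted p = 0.00245), a call lost in 4 of the 6 fits that left out a sample. Its catalytic partner Rabggtb measured 77.7, 68.9 and 60.2 TPM against 58.7, 73.8 and 67.2 TPM, which overlapped. Gdi2, a GDP dissociation inhibitor that extracts Rab proteins from membranes, had a fold change of 0.03. Lrrk2, the kinase that Rab29 can recruit, measured 18.8, 16.2 and 14.04 TPM against 14.1, 13.7 and 14.1 TPM and was not called.

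The cells carried fibroblast markers in all samples, with a summed level of 7194 to 11226 TPM over 9 genes in WT and 8219 to 10827 TPM in KO. Macrophage markers moved with the groups. Their summed level over 9 genes was 36.5 to 41.5 TPM in WT and 76.8, 86.6 and 153 TPM in KO 3, 7 and 10. Of the 9, 6 were higher in every KO sample than in every WT sample, beside 13.3% of all genes tested. Lyz2 made up most of the summed level, while Ptprc and Itgam were at most 0.38 TPM in any sample. Epithelial markers summed to 40.4 to 45.7 TPM in WT and 49.2 to 66.3 TPM in KO, and endothelial markers to 1.10 to 1.87 TPM and 2.31 to 3.10 TPM. Muscle markers (80.2 to 108 TPM and 70.4 to 86.1 TPM) and neural markers (51.5 to 72.1 TPM and 65.0 to 94.4 TPM) overlapped. The part of such cells in the Rab values was not tested. In bulk samples, fewer cells of a type and less RNA per cell cannot be told apart.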

How the data were processed

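RNA from 6 MEF cultures (3 WT, 3 KO, 2 μg each) was sequenced on an Illumina NovaSeq after library preparation with a NEBNext Ultra kit. The methods of the study name STAR, mm10 and DESeq2, and the submitters' processing notes name Bowtie 0.12.2. The counting program and its use of strand were not given in the sources used here. The authors deposited TPM per gene for each sample, and also their own fold changes and p-values, which were not used. The labels give 10% serum, whereas the methods give a higher content. Groups were taken from sample titles.

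TPM multiplied by the GENCODE M21 exon length gave whole reads for 100% of the values checked (tolerance 0.05), which show depth and serve an alternative fit. The 14799 genes whose WT mean or KO mean reached 1 TPM were tested on log2(TPM + 1) values in limma (version 3.58.1, R 4.3.3), whose variance prior followed the mean level, in place of the count test of the study because the unit is TPM. Benjamini-Hochberg adjustment ran over all genes tested, and thresholds follow the study. The members and lists were chosen with earlier results of these data known. Named genes are the called Rab genes, those with an adjusted p-value under 0.05, the most abundant Rab gene of each list, both members of each pair and the called regulators. Others were chosen after their values were seen. Alternatives covered the pseudocount (0.1), the filter (none, and a mean of at least 10 TPM), the scaling, the variance trend, voom on recovered reads, an adjusted p-value under 0.05 and leaving out each sample.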

Additional observations from a re-analysis of the deposited data

How the results depend on the processing

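Rab13 and Rab29 were called lower in each of the 6 fits that left out a sample. The number of Rab genes called lower was 1 when all genes were tested (1.06% of all genes), 1 among the 28 members of at least 10 TPM (12.1%), which leaves fewer Rab genes to test, and 2 to 3 when a sample was left out (4.16% to 6.34%). It was 4 with median-of-ratios scaling (9.91%), with voom (12.2%) and with the adjusted p-value only required to be under 0.05 (16.6%). The number called higher was 2 with median-of-ratios scaling and 2 with voom, which called 3.11% and 4.34% of all genes higher. Without a variance trend Rab28 lost its call and Rab27a gained one. Regulators and effectors called lower numbered 4 when all genes were tested (1.06% of all genes), 5 at 10 TPM or more (12.1%), 20 with voom (12.2%), 20 at an adjusted p-value under 0.05 (16.6%) and 4 to 8 without 1 sample (4.16% to 6.34%), the lowest without WT 5. Those called higher numbered 1 of 120 when all genes were tested (0.204% of all genes), 3 of 61 at 10 TPM or more (3.73%), 9 of 113 with voom (4.34%), 7 of 113 at an adjusted p-value under 0.05 (4.69%) and 7 of 113 with median-of-ratios scaling (3.11%). The causes were not tested.

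Fold changes near 0 changed sign. Rab27b was at 0.022 with median-of-ratios scaling and 0.050 with voom. Leaving out a sample gave ranges of -0.040 to 0.118 for Rab10, -0.015 to 0.091 for Rab11b, -0.034 to 0.090 for Rab1a, -0.029 to 0.110 for Rab22a, -0.104 to 0.042 for Rab27b and -0.056 to 0.125 for Rab7. Of 563 values of single genes under alternatives, 479 kept direction and side of the threshold, 62 lost a call, 8 gained one and 14 changed sign. The number of paralogue pairs with separate groups, an analysis of alternatives added after seeing the data, was 8 to 12, without a background from other pairs. No paired analysis was made, because the labels do not say which samples shared a litter and no replicate number occurs in both groups. Rab genes under 2 TPM rested on as few as 3 reads in a sample, which limits the precision of their ratios. At 3 samples per group the p-values measure only the spread between samples such as these. In limma that spread was drawn toward a variance prior fitted over all genes.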
